A study of Mus musculus with 4 samples.

Results

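Cdx1, Cdx2 and Cdx4, the 3 caudal-type homeobox genes of the mouse, were read by their gene symbols from the count tables of 3 single-cell libraries. They are 3 of 19616 gene names over all tables. All 3 were listed at the OB-EB stage (among 16341 genes) and at the EHF stage (among 18640), whereas the MS-LS table (16639 genes) listed Cdx1 and Cdx2 and left Cdx4 unlisted. The level of each gene was followed across stages and cell classes, from the primitive streak to the caudal end of the head fold embryo and, for Cdx2, the extra-embryonic ectoderm.

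The study followed descendants of T-expressing cells into the heart, and profiled whole mouse embryos by droplet single-cell RNA sequencing that counts the 3′ ends of transcripts as unique molecular identifiers (UMIs). All embryos had the genotype TnEGP-CreERT2/+; R26Rtdtomato/R26Rtdtomato, so that tamoxifen switches on tdTomato in cells making Cre from the T locus. The mother received 0.08 mg tamoxifen per body weight at E6+5h for the mid- to late-streak embryos (MS-LS, collected at E6+21h), at E6+21h for the no-bud to early-bud embryos (OB-EB, collected at E7+3h), and at E7+7h for the early head fold embryos (EHF, collected at E7+14h). There was no untreated library, embryos of a stage were pooled, and cells were not assigned to embryos here. Each stage is 1 library, so stage and library cannot be told apart, no test between stages or cell classes was run, and 95% intervals stand for counting error and nothing else.

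Caudal-type homeobox proteins are transcription factors related to the Hox and ParaHox families. In the gastrulating embryo they act downstream of Wnt, FGF and retinoic acid signals at the posterior end, activate Hox genes and support elongation of the body axis. Cdx2 has an earlier role in the trophectoderm of the blastocyst, where it opposes the pluripotency factor Pou5f1, and it marks trophoblast stem cells and the extra-embryonic ectoderm that derives from them. Cdx genes also act in the allantois and in the formation of blood.

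Stretches upstream of Cdx2 and Cdx4 are shown because the levels of these genes are followed below and both stretches hold the same 8-base word, the octamer ATGCAAAT, a recognition sequence of POU factors such as Pou5f1. Each is the 200 bases from 250 to 51 bases before the RefSeq transcription start (GRCm38.p6), read 5′ to 3′ on the gene's strand, with the octamer in capitals. The stretches lie at chr5:147307300-147307499 (minus strand, Cdx2) and chrX:103321148-103321347 (plus strand, Cdx4), outside the annotated gene bodies.
Cdx2: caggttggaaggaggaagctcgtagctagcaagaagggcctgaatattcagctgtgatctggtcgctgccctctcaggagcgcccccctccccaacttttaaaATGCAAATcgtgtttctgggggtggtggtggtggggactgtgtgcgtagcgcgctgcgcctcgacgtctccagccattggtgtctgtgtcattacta
Cdx4: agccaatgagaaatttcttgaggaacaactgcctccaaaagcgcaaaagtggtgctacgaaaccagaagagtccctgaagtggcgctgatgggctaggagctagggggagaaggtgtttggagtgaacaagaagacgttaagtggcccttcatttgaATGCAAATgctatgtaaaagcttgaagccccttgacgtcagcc
The octamer sat 147 to 140 bases before the start of Cdx2 and 93 to 86 bases before the start of Cdx4. This word was picked after the stretches were read. Searched on both strands, it occurred in 526 of 32851 promoters of 250 bases (1.60%). The word TTTATNG, which resembles the Cdx binding sequence, occurred in 9.81% of these promoters, and a TCF/LEF word, bound by the transcription factors of Wnt signalling and taken as CTTTG with an A or a T at each of the next 2 positions, in 14.8%. Neither was found in the stretches shown. A match is a description of letters and was not tested as a binding site. RefSeq promoter entries matched 2 of the 3 genes.

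The libraries held 3635 cells and 17966956 UMIs at the MS-LS stage, 3994 cells and 12181436 UMIs at the OB-EB stage, and 3494 cells and 20376539 UMIs at the EHF stage. The median depth per cell was 4251, 2620.5 and 5584 UMIs, respectively. Between 12 and 18 cell barcodes were shared by each pair of libraries. Cells were clustered without the Cdx genes, and a cluster was given a cell type name, ending in "-like", only from marker genes. Clusters that no marker list named keep a number, and they held 921, 1725 and 1206 cells from the earliest to the latest stage. Markers of maternal blood and decidua summed to 18, 6 and 279 UMIs, with Hba-a1 the highest in the EHF library, a gene that also leads the embryonic erythroid-like cluster and so is not specific to maternal cells.

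All 3 Cdx genes were most abundant at the EHF stage. Cdx1 had 18 UMIs at the MS-LS stage (1.0 CPM, UMIs scaled to the same total in every library or class), 28 at the OB-EB stage (2.30 CPM) and 3428 at the EHF stage (168 CPM), where 964 cells (27.6%) held a Cdx1 UMI. Cdx2 had 312 UMIs (17.4 CPM), 201 UMIs (16.5 CPM) and 2370 UMIs (116 CPM) at the same stages, and Cdx4 had 2 UMIs at the OB-EB stage (0.164 CPM) and 136 at the EHF stage (6.67 CPM). So Cdx2 was already present in the youngest library, while Cdx1 and Cdx4 UMIs came almost entirely from the EHF library. The log2 ratio of EHF over OB-EB was 6.19 for Cdx1 (interval 5.66 to 6.79), 2.82 for Cdx2 (2.61 to 3.03) and 5.35 for Cdx4 (3.46 to 8.41, from 136 against 2 UMIs). Among 14064 genes with at least 20 UMIs over both libraries, these ratios ranked 6th, 270th and 18th from the highest. A gene was counted as higher or lower where its ratio was at least 2-fold and its interval was clear of equal levels: all 3 Cdx genes were higher, as were 17% of all genes, 6.75% were lower, and the median log2 ratio of all genes was 0.36. Fewer cells of a type and less RNA per cell cannot be told apart in such library totals.

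The whole-library totals of Cdx2 mixed different sources. Extra-embryonic classes, that is ectoderm-like, visceral endoderm-like and parietal endoderm-like cells, held 86.2% of Cdx2 UMIs at the MS-LS stage, 33.3% at the OB-EB stage and 19.7% at the EHF stage. These classes made up 29.7%, 13.3% and 25.1% of the cells. Outside them, Cdx2 stood at 3.59 CPM (43 UMIs) in MS-LS cells, 13.2 CPM (134 UMIs) in OB-EB cells and 132 CPM (1904 UMIs) in EHF cells. These remaining cells are not the embryo proper alone. They include allantois and extra-embryonic mesoderm-like cells (259 Cdx2 UMIs at the EHF stage) and mesenchyme-like cells (8, 25 and 76 UMIs from the earliest stage to the latest). Thus the remaining cells had more Cdx2 at each later stage: the log2 ratio of OB-EB over MS-LS was 1.88 there (1.37 to 2.41), against -0.07 (-0.34 to 0.19) in the whole libraries, and that of EHF over OB-EB was 3.32 (3.07 to 3.58). Cdx1 outside these classes stood at 1.42, 2.76 and 232 CPM, with log2 ratios of 0.96 (0.04 to 1.92) and 6.40 (5.86 to 6.99). Cdx4 outside them gave 5.54 (3.66 to 8.61) for EHF over OB-EB.

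**Figure D1:**
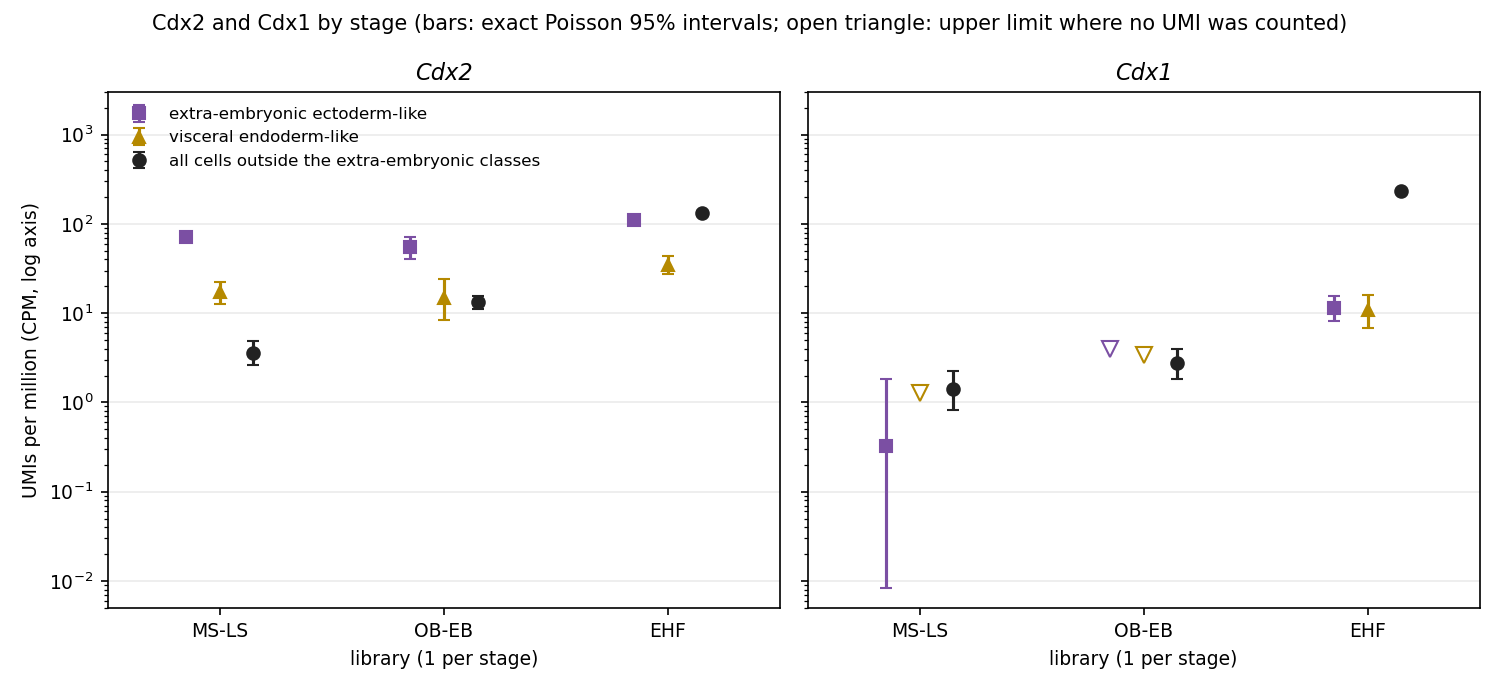
Levels of Cdx2 (left) and Cdx1 (right) by stage, in CPM on a log axis with exact Poisson 95% intervals, in extra-embryonic ectoderm-like cells, visceral endoderm-like cells and all cells outside the extra-embryonic classes, where open triangles give the upper limit for 0 UMIs. Cdx2 in extra-embryonic ectoderm-like cells lay at 71.6, 54.6 and 111 CPM, whereas outside the extra-embryonic classes it went from 3.59 and 13.2 to 132 CPM and Cdx1 from 1.42 and 2.76 to 232 CPM.

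In the MS-LS library, Cdx2 belonged mainly to the extra-embryonic ectoderm. The 538 extra-embryonic ectoderm-like cells held 220 of the 312 Cdx2 UMIs (70.5%), and 33.6% of these cells had one. Visceral endoderm-like cells held 49 UMIs (17.1 CPM), and mesenchyme-like cells 8 UMIs (17.0 CPM). The 896 epiblast-like cells held 6 Cdx2 UMIs (1.39 CPM, 0.511 to 3.03). The highest MS-LS levels beyond the extra-embryonic ectoderm, visceral endoderm and mesenchyme were those of cluster 5, led by Phlda2, Foxf1 and Hand1 (10 UMIs, 13.8 CPM), and cluster 1, led by Fgf8, Fst and Nefl (10 UMIs, 12.1 CPM). Cdx1 had at most 6.66 CPM in any MS-LS class, from 2 UMIs.

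In the OB-EB library, Cdx2 appeared in more classes. Extra-embryonic ectoderm-like cells stood at 54.6 CPM (51 UMIs in 245 cells), mesenchyme-like cells at 35.2 CPM (22.8 to 52.0) and visceral endoderm-like cells at 14.7 CPM. Cluster 9, led by Fst, Sp8 and T, stood at 29.7 CPM (16.6 to 49.0). Cluster 25, led by Pmp22, Hand1 and Foxf1, stood at 26.9 CPM, and cluster 8, led by Sp8, Spry2 and Fgf8, at 23.2 CPM. In the order of the 19 OB-EB classes by Cdx2, all 18 neighbours overlapped within counting error. Cdx1 was highest in cluster 8 at 16.2 CPM, and cluster 7, which T, Mixl1 and Fst lead, followed at 9.10 CPM. Both Cdx4 UMIs of this stage fell in different classes, 1 of them in cluster 25.

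The study named its primitive streak cells by barcode, 318 in the MS-LS library, with 36 more as anterior streak, and 252 in the OB-EB library, and the same cells were read here. In the 318 MS-LS streak cells, Cdx1 had 5 UMIs (2.38 CPM) and Cdx2 11 UMIs (5.24 CPM), 5 of these from 1 cell. The 36 anterior streak cells had neither gene, which allows up to 9.74% of such cells with a UMI (exact binomial). In the 252 OB-EB streak cells, Cdx1 had 10 UMIs (13.5 CPM) and Cdx2 21 UMIs in 20 cells (28.4 CPM), and Cdx4 had 0. The study states that its streak cells of both stages lacked expression of Cdx1 and Cdx4. Here a Cdx1 UMI was held by 1.57% of the MS-LS and 3.57% of the OB-EB streak cells. The log2 ratio of OB-EB over MS-LS streak cells was 2.44 for Cdx2 (1.32 to 3.64) and 2.51 for Cdx1 (0.83 to 4.41), the latter from 15 UMIs, fewer than the 20 asked of a counted gene. Cdx2 was thus 1 of the genes counted as higher, along with 3.82% of 7535 genes, while 6.01% were lower and the median of all genes was -0.15. In streak-like clusters rebuilt from the counts, which shared 198 and 54 cells with the study's, the Cdx2 ratio was 1.20.

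Signals that act upstream of Cdx genes were compared in the same streak cells. A gene could reach 20 UMIs through the stage where it is high alone, so the counts over lists are descriptions. Of all genes compared, 3.82% were higher and 6.01% lower. Of 23 Wnt, FGF and retinoic acid genes, 17 had enough UMIs, 6 were higher and 2 lower in the OB-EB streak, with a list median of 0.62. The 4 with the largest ratios were Sp8, a Wnt-responsive transcription factor (3.21), Rarg, a retinoic acid receptor (-2.81, from 1 against 20 UMIs, -8.19 to -0.17), Spry2, an FGF feedback inhibitor (2.24), and its relative Spry4 (-2.14, from 2 against 25 UMIs, -5.26 to -0.13). Among caudal transcription factors, 4 were higher and 1 lower of 6, with a list median of 1.41. Hes7, an oscillating repressor of the presomitic mesoderm, had 22 against 0 UMIs, a log2 ratio of at least 4.38 when the MS-LS cells are set at 3 UMIs in all. Gbx2 was 2.83 higher, T, the streak and mesoderm factor from whose locus Cre is made, was 1.75 higher, and Sox2 was lower (-1.44). Of 5 pluripotency genes, 0 were higher and 2 lower, and of 6 trophoblast genes 1 was higher and 3 lower. The lists overlap, as Sox2 and Spry4 are in the trophoblast list too and were counted again there. No Hox gene and no embryonic globin reached 20 UMIs, and of 2 ParaHox and endoderm partners, Foxa2, an endoderm and node factor, was lower (-2.91).

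At the EHF stage, Cdx1 followed the caudal end of the embryo. The highest levels were those of cluster 22 (979 CPM, 899 to 1065), caudal mesoderm-like cells (883 CPM, 812 to 958) and cluster 8 (780 CPM, 721 to 843). Cluster 22, 77 cells led by T, Hoxaas3, Nkx1-2, Nefm, Grsf1 and Hes7, scored best for caudal epiblast but too near to caudal mesoderm to be named. Cluster 8, 158 cells led by Nkx1-2, Nefm, Pmaip1 and Pou5f1, lay between caudal neuroectoderm and caudal epiblast. Caudal neuroectoderm-like cells had 469 CPM (432 to 509), cluster 5, led by the mesoderm genes Aldh1a2, Pcdh19, Meox1 and Tbx6, had 421 CPM (380 to 464), and cluster 14, whose cells were shallow with a median of 2108.5 UMIs, had 397 CPM. Cluster 9, 156 cells led by Mesp1, Evx1os, Pcdh19, Hoxaas3, Hoxd9 and Foxf1, followed at 201 CPM (174 to 232), and node and notochord-like cells at 185 CPM.

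Other classes had less Cdx1. Cluster 1, whose best score was for allantois, had 118 CPM (87.3 to 157), and cluster 18, whose best score was for surface ectoderm, had 81.7 CPM with a UMI in 29.4% of cells. Definitive endoderm-like cells had 62.0 CPM, allantois and extra-embryonic mesoderm-like cells 32.7 CPM (21.0 to 48.7), and first heart field-like cells 24.6 CPM. Rostral neuroectoderm-like cells had 18.4 CPM, and 18 of their 27 Cdx1 UMIs (66.7%) lay in 3 of the 190 cells. Without these 3 cells the level was 6.31 CPM. Extra-embryonic ectoderm-like cells had 11.5 CPM, with a UMI in 6.86% of cells, at a median depth of 7125 UMIs. Erythroid-like cells, at a median depth of 5164 UMIs, had 8.68 CPM (5 UMIs) and a UMI in 4.63% of cells. They stand here for a background, and free RNA itself was not measured. Along the order of 25 classes, levels differed beyond counting error at 3 of 24 steps: caudal mesoderm-like over cluster 8 (log2 0.18), cluster 8 over caudal neuroectoderm-like (0.73) and cluster 14 over cluster 9 (0.98). Cluster 22 and caudal mesoderm-like cells did not differ beyond it (0.15, -0.02 to 0.32).

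**Figure D2:**
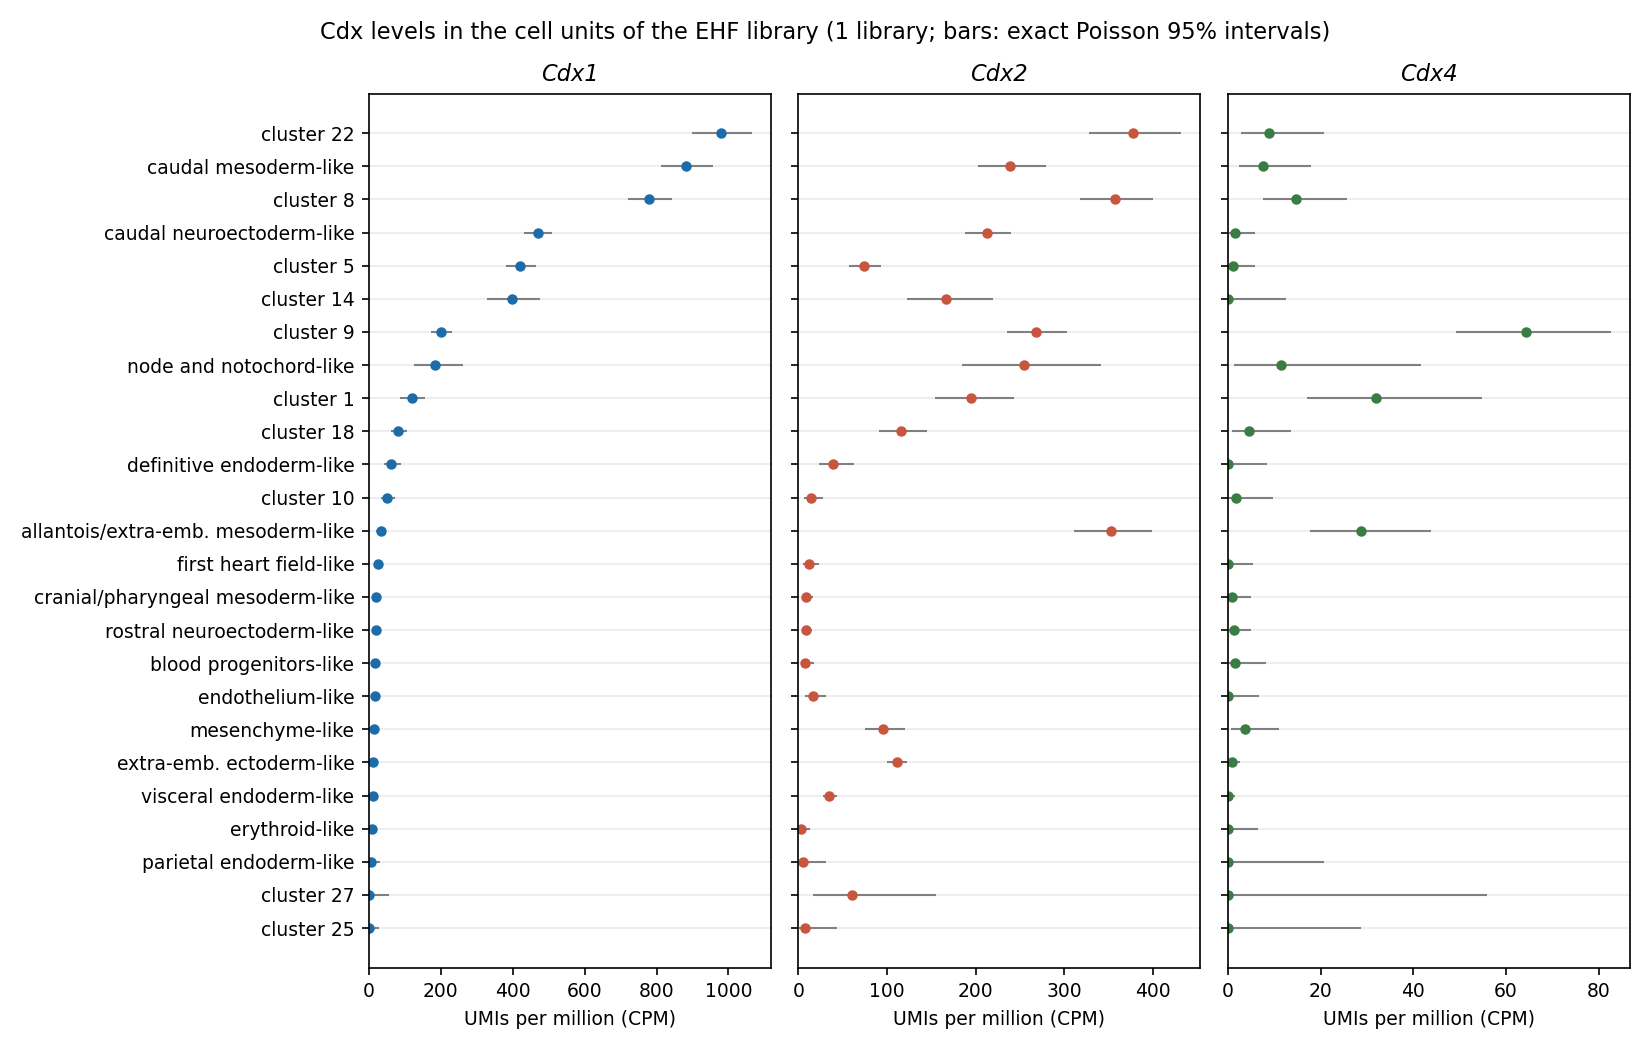
Levels of Cdx1, Cdx2 and Cdx4 in the cell classes of the EHF library, in CPM, with exact Poisson 95% intervals. Cdx1 was highest in cluster 22 (979 CPM), Cdx2 in cluster 22 (377), cluster 8 (357) and allantois-like cells (353), and Cdx4 in cluster 9 (64.3).

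Cdx2 was found in caudal, extra-embryonic and other classes. Cluster 22 (377 CPM, 328 to 432), cluster 8 (357 CPM, 317 to 400) and allantois and extra-embryonic mesoderm-like cells (353 CPM, 311 to 399) were highest and overlapped, and at resolution 2 the allantois-like cells led (345 CPM). Next came cluster 9 (268 CPM, 236 to 303), node and notochord-like cells (254 CPM), caudal mesoderm-like cells (239 CPM) and caudal neuroectoderm-like cells (212 CPM). Unnamed clusters followed, with 195 CPM in cluster 1, 166 CPM in cluster 14 and 116 CPM in cluster 18 (91.0 to 145), which is led by Gap43, Wnt6 and Tfap2a, scored best for surface ectoderm and held a Cdx2 UMI in 36.3% of cells. Allantois-like cells, named for the mesoderm that forms the umbilical vessels, thus stood beside the caudal-most embryonic clusters for Cdx2. Their Cdx1 level of 32.7 CPM ranked 13th of 25 classes. The name rests on 5 detected markers of 7. The allantois marker Tbx4 was held by only 6 of the 86 cells with Cdx2 and 0% of the 22 without. Nkx1-2, a marker of caudal epiblast and caudal neuroectoderm, was held by 38.4% and 13.6% of them. Extra-embryonic ectoderm-like cells had 111 CPM (100 to 123), and 48.9% of them held a Cdx2 UMI, or 17.0% when each cell was thinned to 2000 UMIs. Mesenchyme-like cells had 96.0 CPM, cluster 5 73.5 CPM, definitive endoderm-like cells 39.0 CPM and visceral endoderm-like cells 34.9 CPM. The lowest class was erythroid-like at 3.47 CPM, with a UMI in 1.85% of cells, and rostral neuroectoderm-like cells had 8.88 CPM. Neighbours in the order differed beyond counting error at 2 steps, allantois-like over cluster 9 (0.40) and visceral endoderm-like over endothelium-like (1.09).

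Cdx4 was found in 108 cells of the EHF library (3.09%). Of its 136 UMIs, 61 (44.9%) lay in cluster 9, where 45 of 156 cells held one (28.8%) and the level was 64.3 CPM (49.2 to 82.6). Cluster 1, 202 shallow cells with a median of 1758 UMIs, followed with 13 UMIs (32.1 CPM), and allantois-like cells with 21 UMIs (28.6 CPM, 17.7 to 43.7). Cluster 8 had 12 UMIs (14.7 CPM), cluster 22 had 5 (8.90 CPM) and caudal mesoderm-like cells had 5 (7.65 CPM). In this clustering the class with most Cdx4 was another than those with most Cdx1: cluster 9 over cluster 22 gave a log2 ratio of 2.85 (1.55 to 4.53) for Cdx4, although its Cdx1 level was 201 against 979 CPM. Cluster 9 exceeded cluster 1 by 1.0 (0.12 to 1.99) and allantois-like cells by 1.17 (0.43 to 1.96). This order depended on the clustering: at the coarser resolution of 2, allantois-like cells were the highest class for Cdx4 (32.4 CPM, 21.0 to 47.8) and the match of cluster 9 had 30.6 CPM. In 9 of 25 classes no Cdx4 UMI was found. At a finer clustering, cluster 9 held mainly 2 groups of cells, 82 led by Mesp1, Pcdh19 and Lhx1 with 22 Cdx4 UMIs (41.9 CPM, 26.2 to 63.4), and 70 led by Hoxaas3, Mesp1 and Hoxd9 with 37 (91.8 CPM, 64.7 to 127). Their Cdx1 levels were 137 and 248 CPM, respectively.

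The balance between Cdx1 and Cdx2 UMIs differed between classes. Because 3′ counts of different genes are not on a common scale of transcripts, the share of Cdx1 among Cdx1 and Cdx2 UMIs was compared across classes only. It was 85.1% (81.6 to 88.2) in cluster 5, 78.7% (75.6 to 81.6) in caudal mesoderm-like cells, 72.2% (68.8 to 75.3) in cluster 22, 68.8% in caudal neuroectoderm-like cells and 68.6% in cluster 8. In cluster 9 it was 42.9% (38.3 to 47.7), and in node and notochord-like cells 42.1%. It was lowest in mesenchyme-like (12.6%, 6.48 to 21.5), extra-embryonic ectoderm-like (9.37%, 6.78 to 12.5) and allantois-like cells (8.48%, 5.51 to 12.4). In these last classes Cdx1 itself was near the level given above for erythroid-like cells, except the allantois-like ones. Visceral endoderm-like cells had 23.5% (15.7 to 33.0). The intervals of the mesenchyme-like, extra-embryonic ectoderm-like and allantois-like cells lay under those of the 5 classes named first and of cluster 9. The share of Cdx4 among Cdx4 and Cdx2 UMIs was 19.4% (15.1 to 24.2) in cluster 9, 7.50% in allantois-like cells, 3.95% in cluster 8 and 2.30% in cluster 22.

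**Figure D3:**
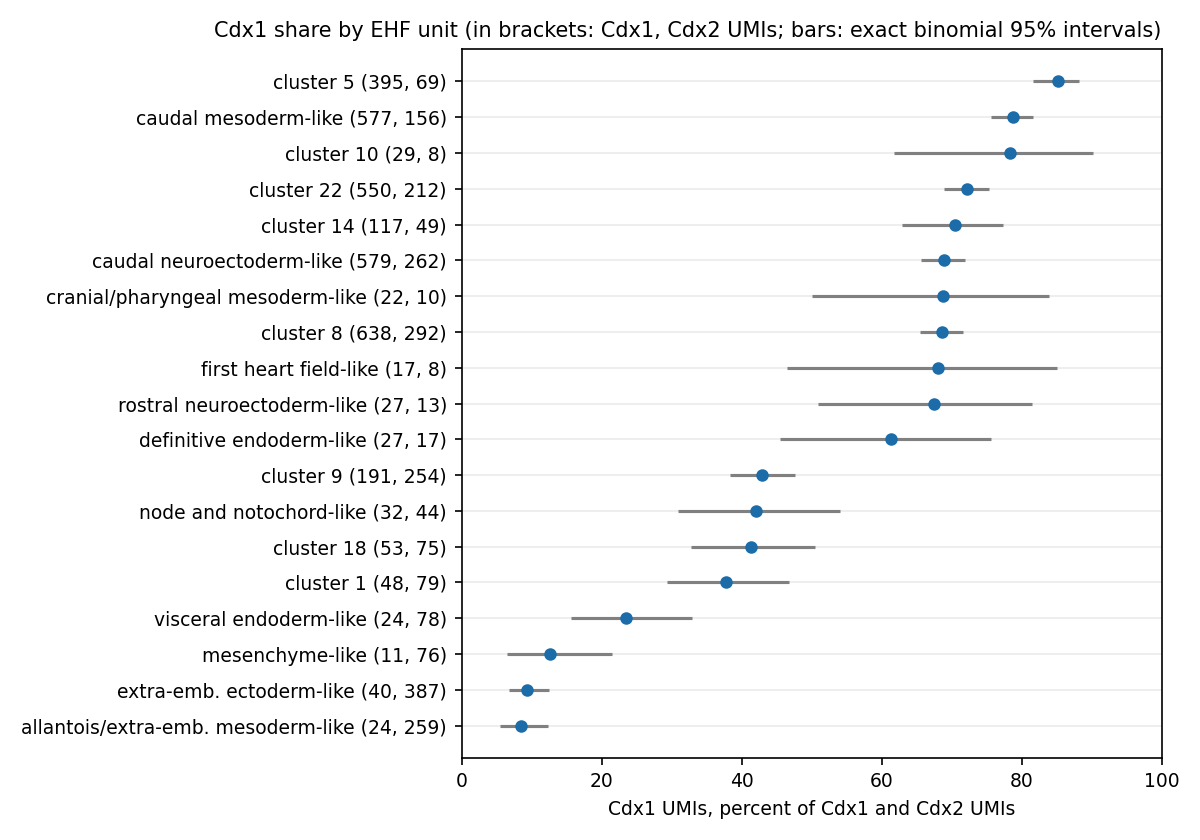
Share of Cdx1 among Cdx1 and Cdx2 UMIs, in percent, by EHF cell class, with exact binomial 95% intervals and the Cdx1 and Cdx2 UMIs of each class in brackets. The share runs from 85.1% in cluster 5 through 42.9% in cluster 9 to 8.48% in allantois-like cells.

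Detection in single cells was uneven in the same classes. In cluster 22 the median cell held 7 Cdx1 UMIs, 57 of 77 cells held at least 5, and the highest number in a cell was 17. The median for Cdx2 there was 2. Both genes were detected in 71 of the 77 cells (92.2%), in 112 of 158 cells of cluster 8 (70.9%), in 76 of 119 caudal mesoderm-like cells (63.9%) and in 63 of 156 cells of cluster 9 (40.4%). In allantois-like cells only 16 of 108 held both (14.8%), against 70 with Cdx2 and no Cdx1, and in extra-embryonic ectoderm-like cells 16 of 481 (3.33%) held both, against 219 with Cdx2 alone of this pair. With each cell thinned to 2000 UMIs, the share with both was 49.4% in cluster 22 and 12.6% in cluster 9. Over the whole EHF library, 591 cells held Cdx1 and Cdx2, 373 Cdx1 without Cdx2 and 578 Cdx2 without Cdx1. All 3 genes were found together in 52 cells, 24 of them in cluster 9 (15.4% of its cells). Of the 108 cells with Cdx4, 84 also held Cdx2 and 65 Cdx1.

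Cdx2 in the extra-embryonic ectoderm was followed over the 3 stages. Its level was 71.6 CPM (62.5 to 81.8) in MS-LS, 54.6 CPM (40.7 to 71.8) in OB-EB and 111 CPM (100 to 123) in EHF cells. The first step did not differ beyond counting error (log2 -0.39, -0.86 to 0.05). EHF over OB-EB gave 1.02 (0.60 to 1.47), at least 2-fold, and EHF over MS-LS 0.63 (0.39 to 0.88), less than 2-fold. Between EHF and MS-LS cells of this class 11.4% of 9757 genes were higher and 4.77% lower, and the median of all genes was 0.25. Cdx1, with 40 against 1 UMI, was among those counted as higher (5.14, 2.58 to 10.48). Its EHF level of 11.5 CPM was near the 8.68 CPM of erythroid-like cells, and what free RNA adds was not tested. Of 17 trophoblast genes, 4 were higher and 2 lower with a list median of 0.11: Gata2 (3.51) and Hand1 (2.74), factors of trophoblast giant cell and placental differentiation, and the keratin Krt8 (1.62) were higher, and Eomes, a trophoblast stem cell factor, was lower (-1.34). Of 7 pluripotency genes, 4 were lower and 0 higher. The class was not made up alike at both stages. At the EHF stage, 193 of its cells formed a cluster with 188 CPM of Ascl2 and 11.9 CPM of Eomes. The MS-LS clusters of the class had 8.15 to 37.5 CPM of Ascl2. What this adds to the ratios of the class was not tested. Visceral endoderm-like cells had 17.1, 14.7 and 34.9 CPM of Cdx2 at the 3 stages, with 1.03 (0.50 to 1.58) for EHF over MS-LS, and mesenchyme-like cells 17.0, 35.2 and 96.0 CPM, with 2.5 (1.45 to 3.76).

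Cdx2 was found in each of the 3 clusters that made up the EHF extra-embryonic ectoderm-like class, which differed in other trophoblast genes. Cluster 2, led by Mt2, Rhox6, Fabp3 and Ascl2, had 90.4 CPM of Cdx2 (75.4 to 107), 11.9 CPM of Eomes and 89.0 CPM of Elf5, a factor of trophoblast stem cells. Cluster 7, led by Elf5, Wnt7b and Id2, had 129 CPM of Cdx2 (108 to 152), 58.9 CPM of Eomes and 223 CPM of Elf5. Cluster 11, led by Eomes and Elf5, had 121 CPM of Cdx2 (100 to 145), 156 CPM of Eomes and 274 CPM of Elf5. At a finer clustering of the class, 67 cells led by Rhox6, Rhox9 and Mt2 had 42.8 CPM of Cdx2 (27.2 to 64.3), against 120 CPM (98.1 to 145) in 126 cells led by Fabp3, Dnmt3l and Mt2. Ascl2, a gene of the ectoplacental cone, was among the 10 leading genes of both these finer groups. Over clusters 2, 7 and 11 it ran opposite to Eomes and Elf5, at 188, 135 and 73.0 CPM. Cdx2 was lowest in cluster 2, with an interval just under that of cluster 7 but overlapping that of cluster 11. The Cdx2 intervals of clusters 7 and 11 also overlapped, as did those of Elf5 (196 to 253 and 242 to 309 CPM). Of cells with a Cdx2 UMI, 67.7% also held Elf5 and 36.6% Eomes, against 58.9% and 28.0% of cells without one; the depth of these cells was not equalised. In the MS-LS library, Elf5 was found in 70.7% of extra-embryonic ectoderm-like cells with Cdx2 and in 61.9% of those without.

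The genes that surround Cdx in each setting were compared between classes. Cluster 22 was taken because it scored best for caudal epiblast. Its Cdx1 and Cdx2 levels were also the highest, so the Cdx ratios are descriptions of that choice. Over rostral neuroectoderm-like cells, Cdx1 had a log2 ratio of 5.73 (5.17 to 6.34) and Cdx2 of 5.41 (4.6 to 6.34), while Cdx4 had 7 UMIs over both classes, under the minimum. Both were thus higher, with 3.8% of 7266 genes, while 3.17% were lower and the median of all genes was 0.00. The list genes, unlike the Cdx genes, took part in the clustering. Some were also markers that scored these classes, among them T, Wnt3a, Fgf17, Fgf8, Sox2, Otx2 and Elf5, so their ratios partly restate the choice of classes. A gene could also reach 20 UMIs through the class where it is high alone. Counts and ratios of list genes are therefore descriptions in this and the next comparison. Of the Wnt, FGF and retinoic acid genes, 15 were higher and 2 lower of 19, with a list median of 2.60: Wnt3a, the ligand of the late streak (6.34, from 31 against 1 UMI, 3.75 to 11.68), the Wnt target Sp5 (5.59), Fgf17 (5.24, from 29 against 2 UMIs, 3.26 to 8.35) and Fgf8 (4.88). Cyp26a1, which breaks down retinoic acid, was lower (-1.67), as was Fgfr1 (-1.12).

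Caudal transcription factors and Hox genes were read in the same classes. Of the caudal factors, 6 were higher and 1 lower of 8, with a list median of 4.52: Hes7 (7.55, from 72 against 1 UMI, 5.03 to 12.87), T (7.45), Tbx6, needed for paraxial mesoderm (4.97), and Mixl1 (4.63). Sox2, a neural factor, was lower (-1.92). Of 31 listed Hox genes 4 reached the minimum, all through cluster 22, so they had to differ and are given as values: Hoxb1 had 92 against 3 UMIs, Hoxb8 27 against 2 and Hoxb2 36 against 5. Pou5f1 was higher (1.29) and the other 3 pluripotency genes lower, among them Otx2, a rostral factor (-5.13). Of 6 trophoblast genes 0 were higher and 2 lower, with Sox2 counted again among the latter, and the 1 globin with enough UMIs was neither. No other ParaHox gene reached 20 UMIs in this or the next comparison.

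The extra-embryonic ectoderm had Cdx2 beside another set of genes than the caudal end. Over cluster 22, extra-embryonic ectoderm-like cells had a log2 ratio of -1.77 (-2.01 to -1.52) for Cdx2 and -6.42 (-6.92 to -5.95) for Cdx1. Both were thus lower, with 8.82% of 9047 genes, while 10.3% were higher and the median of all genes was 0.09. Of trophoblast genes, 13 were higher and 0 lower of 16, with a list median of 3.16: Elf5 (5.68, from 636 against 2 UMIs, 3.82 to 8.73), Hand1 (4.90), Eomes (4.23) and Fgfr2, the receptor through which FGF maintains trophoblast stem cells (4.15). Of the Wnt, FGF and retinoic acid genes 0 were higher and 17 lower of 18 (list median -5.15), and of caudal factors 0 and 6 of 7 (-5.60), genes that reached the minimum mainly through cluster 22. Hoxb1 had 7 UMIs against 92 in cluster 22, and Hoxb8 2 against 27. Pluripotency genes were divided, with Pou5f1 lower (-5.71) and Zfp42 (4.99, from 197 against 1 UMI, 2.49 to 10.30) and Utf1 (3.90) among the 3 higher.

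Hox genes, targets of Cdx proteins, were summed by paralogue group across EHF classes, a grouping chosen after the values were seen. The 31 listed Hox genes had 5696 UMIs. Groups 1 to 4, the first to be switched on, had 609 CPM in cluster 22, 748 in caudal mesoderm-like cells, 686 in cluster 5, 531 in cluster 9 and 258 in allantois-like cells. Groups 9 to 13, the last to be switched on, had 19.6, 13.8, 2.13, 95.9 and 234 CPM in the same classes. Groups 5 to 8 had 112, 121, 14.9, 124 and 285 CPM. The classes with most late Hox UMIs, allantois-like cells and cluster 9, were those with most Cdx4 UMIs. Their order was reversed for Cdx4, at 28.6 and 64.3 CPM. Cluster 1 had 86.3 CPM of groups 9 to 13 and, at 32.1 CPM, slightly more Cdx4 than allantois-like cells, within counting error. Mesenchyme-like cells, whose Cdx1 share overlapped that of allantois-like cells, had 18.9 CPM of groups 9 to 13, while cluster 5, with the highest Cdx1 share, had few Hox UMIs beyond group 4. Rostral neuroectoderm-like cells had 19, 5.47 and 6.15 CPM of the 3 sets, and extra-embryonic ectoderm-like cells 14.9, 2.29 and 1.43 CPM despite their Cdx2. In whole libraries, 16 of 17 Hox genes with enough UMIs were higher and 1 lower at the EHF stage than at the OB-EB stage, beside 17% and 6.75% of all genes, and the list median was 3.13 beside 0.36. Most of their UMIs were EHF ones, so that they reached the minimum through that library, with Hoxb6 (4.20), Hoxb8 (3.93) and Hoxb7 (3.83) among the highest.

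**Figure D4:**
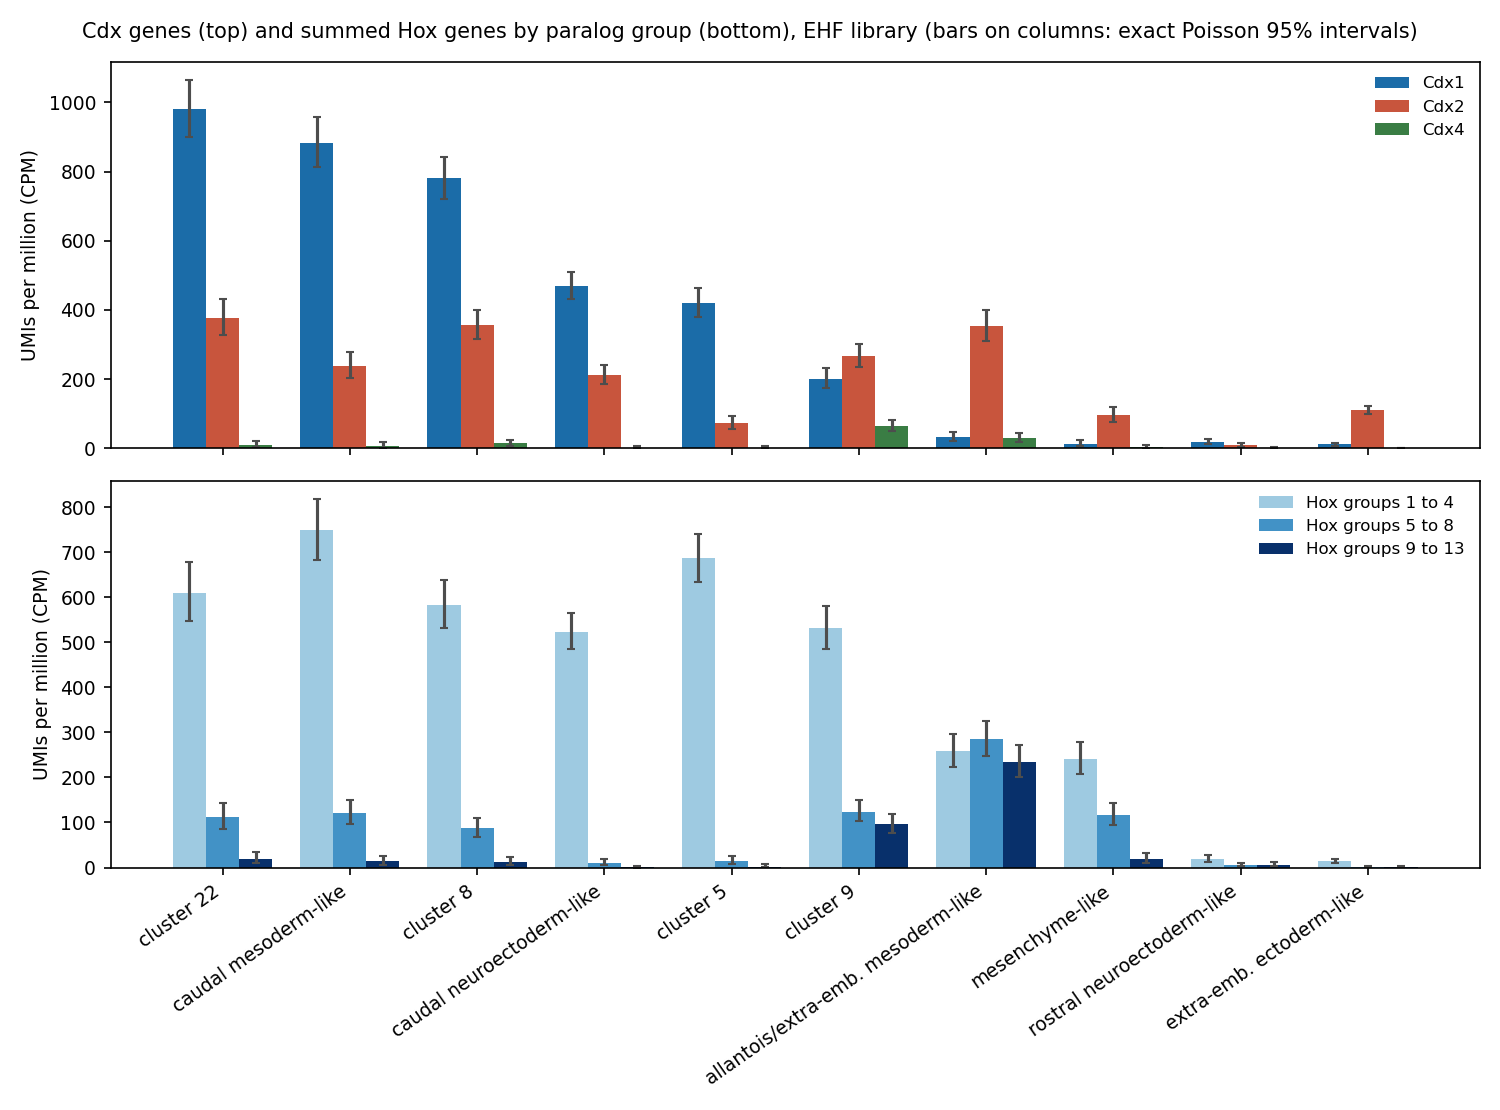
Columns of Cdx1, Cdx2 and Cdx4 (top) and of summed Hox genes of paralogue groups 1 to 4, 5 to 8 and 9 to 13 (bottom) in 10 EHF cell classes, in CPM with exact Poisson 95% intervals, each column to be read across classes. Groups 9 to 13 stand at 234 CPM in allantois-like cells and 95.9 in cluster 9 against 19.6 in cluster 22.

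The genes most like each Cdx gene were found by Pearson correlation of log2(CPM + 10) over the 29 EHF clusters, among genes with at least 200 UMIs. The clusters share 1 library and differ in depth, so these are descriptions. For Cdx1 they included Hotairm1 (0.918), Gbx2 (0.914), Cxx1b (0.911) and Grsf1 (0.903). For Cdx2 the values were lower, and the genes included Tcf7 (0.764), a transcription factor of the Wnt pathway, Etv4 (0.739), an FGF-responsive factor, Aspscr1 (0.736) and Ypel3 (0.734). For Cdx4 they were Smim10l2a (0.767), Mesp1 (0.758), Hoxb6 (0.735), Hoxaas3 (0.711) and Spin2c (0.684). Among the Cdx genes themselves the values were 0.679 for Cdx1 and Cdx2, 0.644 for Cdx2 and Cdx4, and 0.461 for Cdx1 and Cdx4.

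Cdx levels were also compared between EHF cells with and without a tdTomato UMI within a class. Tamoxifen was given 7 hours before collection, and the label marks cells that held Cre from the T locus from then on, and their descendants. The reporter had 561 UMIs in this library and 81 and 136 in the younger ones, so a cell without a UMI may still carry the label. In cluster 22 the log2 ratio of cells with over cells without was -0.08 for Cdx1 (-0.33 to 0.18), and in caudal mesoderm-like cells 0.10 (-0.15 to 0.34). In cluster 9 it was 0.40 for Cdx1 (-0.03 to 0.83), 0.04 for Cdx2 (-0.32 to 0.41) and -0.50 for Cdx4 (-1.29 to 0.27). All 18 such intervals included equal levels.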

How the data were processed

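Per the labels, cells of pooled mouse embryos were captured on the 10x Chromium 3′ platform, and the submitters' processing notes name Cell Ranger 3.0.2, R 3.6.1 and Seurat 3, with mouse build GRCm38. The deposited values are whole-number UMI counts per gene and cell, and the shallowest cells the authors kept held 1001 to 1004 UMIs. Strand use in counting was not given in the sources used here. The EHF table was deposited in 2 copies with 0 differing values and 21 differing gene names, and the first was used.

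Counts of each library were log-normalised (scale 10000) and clustered in Seurat 5.3.0 under R 4.3.3 on 2000 variable genes and 50 components at resolution 4.5, with the Cdx genes and the tdTomato row held out. A cluster took a name where at least 3 markers of a list were detected (20% of cells, 2-fold over the rest) and its score led the next list by 0.2 log2; other clusters stayed unnamed, so differences from the study may come from rebuilt names. Doublets were kept, since Scrublet (scanpy 1.11.5) called 6, 0 and 13 cells, too few to rely on. Levels are summed UMIs of a gene scaled to the total of the library or class (CPM) with exact Poisson 95% intervals, shares have exact Clopper-Pearson intervals, and ratios have exact conditional intervals (Python 3.11.15, scipy 1.17.1). Genes with at least 20 UMIs over both groups were compared, and a group with 0 UMIs was set at a floor of 3. For shares of cells, each cell was also thinned to 2000 or 3500 UMIs, leaving out shallower cells.

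The members and gene lists were chosen with earlier results of these data known. The 3 Cdx genes are always named. Of a list, up to 4 genes with the largest absolute log2 ratios are named, and for likeness the 5 highest correlations, and some genes that this rule takes are not reported here. Genes that lead a cluster, genes named beyond those 4, the trophoblast genes given for the 3 extra-embryonic ectoderm clusters and the Hox sums were chosen after their values were seen. On simulated counts of 7228 genes for cluster 22 against rostral neuroectoderm-like cells, 96.3% of 191 genes changed 4-fold were recovered and 1.56% of unchanged genes were called. These counts were Poisson draws from the pooled profile of both classes, without spread between cells and without clustering. The shares therefore check the calculation only and are not error rates of the real comparison.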

Additional observations from a re-analysis of the deposited data

How the results depend on the processing

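Cdx levels, ratios and shares were recomputed with clustering at resolution 2 or 8, with the Cdx genes allowed among the variable genes, with cells of at least 2000 UMIs, without the 5% of cells of highest doublet score, as means over cells, without mitochondrial and ribosomal genes in the totals, and with thinned cells. Of 242 such values, 198 lay within the interval or 1.5-fold limit of the reported one and 44 moved. A change of sign was looked for only in ratios at least 2-fold with an interval clear of equal levels, and 0 changed. The order of classes was not among the 242 values and did change at resolution 2, where allantois-like cells were highest for Cdx4 (32.4 CPM) and Cdx2 (345 CPM). At resolution 2, where cells are grouped more coarsely, Cdx2 in the cluster matched to cluster 22 was 315 CPM, Cdx4 in that matched to cluster 9 was 30.6 CPM, and the log2 ratio of Cdx2 in extra-embryonic ectoderm-like cells over cluster 22 was -1.51. No class was named rostral neuroectoderm-like there. At resolution 8, Cdx4 in the match of cluster 9 was 39.3 CPM. Without the extra-embryonic classes, the log2 ratio of Cdx2 was 1.88 for OB-EB over MS-LS and 3.32 for EHF over OB-EB. The first of these changed sign, since it was slightly negative in the whole libraries, with an interval that included equal levels. In rebuilt streak-like clusters the Cdx2 ratio was 1.20. In cluster 22, cells with Cdx1 and Cdx2 were 49.4% at 2000 UMIs and 70.7% at 3500, and cells with all 3 genes 1.33% at 3500. In cluster 9 the shares were 12.6% and 25.8% for the pair and 1.99% and 7.58% for all 3, at 2000 and 3500 UMIs.

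The numbers of genes counted depend on the minimum of UMIs. For cluster 22 over rostral neuroectoderm-like cells they were 480 higher at a minimum of 1 UMI, and 45 higher and 59 lower at 100, against 276 and 230 at 20. For extra-embryonic ectoderm-like cells over cluster 22 they were 1483 lower at 1, and 547 higher and 221 lower at 100, against 934 and 798. For the streak cells they were 435 higher at 1, and 111 higher and 166 lower at 100, against 288 and 453. At 100 UMIs, EHF over OB-EB gave 1562 higher and 582 lower, against 2394 and 949, and the extra-embryonic ectoderm-like cells of EHF over MS-LS gave 414 and 221, against 1109 and 465. A higher minimum tests fewer genes. The cause of the other movements was not tested. No paired analysis was possible because each stage is 1 library and no test was made. Cdx4 rests on 136 UMIs in the EHF library and 2 in the OB-EB library.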
